A study of Homo sapiens with 6 samples.

Results

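The ER chaperone and unfolded protein response genes followed in irradiated microglial cells were HSPA5, HSP90B1, HYOU1, DNAJB9, CALR, CANX, PDIA3, PDIA4, PDIA6 and XBP1, chosen by gene name. All transcripts listed under each name were summed, which gave 10 genes of 31768 and 170 transcripts of 153848. HMC3, an immortalised human microglial line, was sequenced as 3 independent control cultures (0 Gy) and 3 independent cultures given 15 Gy of 6 MV X-rays, all collected after 24 h. Full-length cDNA was amplified by PCR and read on an Oxford Nanopore instrument, and the values are counts per transcript. No other agent, dose, time or cell line was part of the series. The 6 libraries held 4870897 to 9082409 counts.

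The endoplasmic reticulum folds secreted and membrane proteins with the help of chaperones (HSPA5, also called BiP, and HSP90B1, also called GRP94), the lectins CALR and CANX, and disulfide isomerases of the PDIA family. When unfolded proteins build up, the sensors IRE1, PERK and ATF6 start the unfolded protein response. IRE1 removes a short intron from XBP1 mRNA, and the spliced mRNA encodes the active transcription factor that, with ATF6, drives chaperone genes.

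The label of the cells was checked first. Of 15 microglial markers, 8 had any counts and 3, TREM2 and CD68 among them, had a mean of at least 1 CPM (counts scaled to an equal library size after TMM normalisation). CX3CR1, P2RY12, TMEM119, ITGAM, TYROBP, C1QA and C1QB had no counts in the 6 libraries. Of 12 fibroblast and pericyte markers, COL3A1 and LUM had no counts. A mean of at least 1 CPM was reached by 8, which were COL1A1, COL1A2, PDGFRB, ACTA2, THY1, MCAM, VIM and ENG. The summed level of this list was 2195 to 2738 CPM in control and 2750 to 3067 CPM in irradiated libraries, and is not split by gene here. The microglial sum was 84.9 to 107.9 CPM in control and 114.6 to 131.9 CPM in irradiated libraries. Their part in the results on chaperones was not tested.

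Promoters of 7 members held letters of the sites through which ATF6 and XBP1 are known to act, and these are shown because they tie those members together. RefSeq promoters (GRCh38.p14, 250 bases before to 50 bases after each start) were found for 9 members, and PDIA3 was not matched. They were searched on both strands for ERSE (CCAAT, 9 bases of any kind, CCACG), ERSE-II (ATTGG, 1 base of any kind, CCACG) and UPRE (TGACGTGG). In capitals are the fixed letters of each motif, written along the gene's strand, so that a motif on the other strand appears as its reverse complement.
HSPA5, chr9:125241386-125241414, minus strand, ERSE: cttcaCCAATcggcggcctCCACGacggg
HSP90B1, chr12:103930211-103930239, plus strand, ERSE: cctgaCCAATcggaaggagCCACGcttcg
HSP90B1, chr12:103930316-103930344, plus strand, ERSE: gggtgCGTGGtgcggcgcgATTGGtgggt
CALR, chr19:12938379-12938407, plus strand, ERSE: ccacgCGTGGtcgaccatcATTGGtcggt
CANX, chr5:179698773-179698801, plus strand, ERSE: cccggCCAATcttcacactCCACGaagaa
PDIA6, chr2:10812848-10812876, minus strand, ERSE: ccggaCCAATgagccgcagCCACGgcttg
XBP1, chr22:28800598-28800626, minus strand, ERSE: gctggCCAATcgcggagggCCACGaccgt
HYOU1, chr11:119057269-119057289, minus strand, ERSE-II: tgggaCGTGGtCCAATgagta
HYOU1, chr11:119057375-119057395, minus strand, ERSE-II: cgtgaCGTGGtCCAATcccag

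An ERSE stood in 8 of the 15 promoter entries of the matched members, against 0.0769% of all 35116 entries, and counted by gene in 6 of 9 members, against 0.0916% of 27305 genes. ERSE-II was in HYOU1, against 0.0696% of genes. A UPRE overlapped the farther ERSE-II of HYOU1, and UPRE was in 0.927% of genes. PDIA4 and DNAJB9 held none of the 3 motifs in this window. A match is a run of letters and no measured binding. The members were chosen as genes of this response, so these shares are description and no independent support.

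Genes with these motifs, members included, moved in both directions. Of 13 tested genes with an ERSE, 2 fell (HSPA5 and HSP90B1) and 1 rose (CRELD2, which is no member), with a median log2 fold change of 0.18 beside 0.08 for all genes tested. Members make up 6 of these 13, and of the 7 others 1 rose and 0 fell, with a median of 0.21. Of 13 tested genes with an ERSE-II, 3 rose, HYOU1 among them, and 1 fell, with a median of −0.04. Of 111 tested genes with a UPRE, 25 rose and 11 fell, with a median of 0.26. Without HYOU1, 2 of 12 genes with an ERSE-II rose and 1 fell, and 24 of 110 genes with a UPRE rose and 11 fell. Over all genes tested, 11.6% rose and 14.1% fell.

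Of the 9 members that could be tested, 3 fell, 1 rose and 5 did not pass. HSPA5, HSP90B1 and PDIA3 fell to 0.73, 0.784 and 0.651 of their control levels, and HYOU1 rose 1.67-fold. The share that fell is read beside 14.1% of the 11118 genes tested that fell, and the share that rose beside 11.6% that rose. A gene passed at an adjusted p under 0.05 in the quasi-likelihood test of edgeR, adjusted over all genes by Benjamini-Hochberg. No member had an absolute log2 fold change over 1, the further limit for a differentially expressed gene, which 4% of all genes reached as higher and 1.7% as lower. The median log2 fold change was 0.04 over the 9 members and 0.08 over all genes tested.

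**Figure D1:**
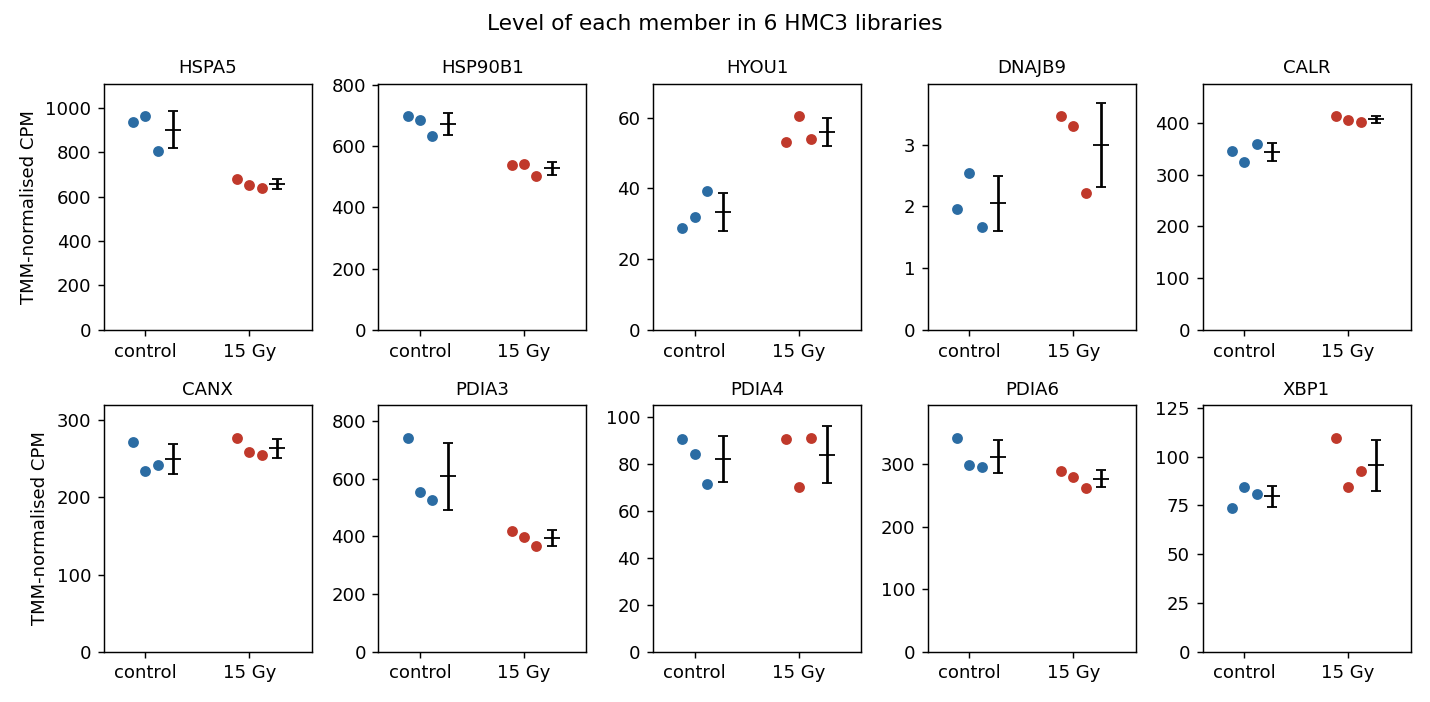
TMM-normalised CPM of the 10 members in each library, with control in blue, irradiated in red, and bars for the mean and SD of 3 cultures (each vertical axis starts at 0). HSPA5, HSP90B1, PDIA3 and PDIA6 were lower and HYOU1 and CALR higher in every irradiated library than in every control library, and the other members overlapped.

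HSPA5, the Hsp70 of the ER lumen that also holds the stress sensors inactive, lies at chr9:125234853-125241330. It read 933, 963 and 806 CPM in the control libraries and 680, 653 and 638 CPM in the irradiated libraries. Every irradiated library was below every control library. The mean was 901 ± 83.7 CPM (SD, n = 3) in control and 657 ± 21.2 CPM in irradiated cells. The log2 fold change was −0.45 (SE 0.12, adjusted p = 0.0101), and without control replicate 1 or irradiated replicate 3 the adjusted p was 0.0572 or 0.0652.

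HSP90B1, the Hsp90 of the ER lumen (chr12:103930107-103953645), read 699, 686 and 631 CPM in control and 538, 541 and 501 CPM in irradiated libraries. The groups did not overlap. Its log2 fold change was −0.35 (SE 0.11, adjusted p = 0.0298). The call was lost without control replicate 1 (adjusted p = 0.128), control replicate 2 (0.0731), irradiated replicate 1 (0.0716) or irradiated replicate 3 (0.148).

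PDIA3, also called ERp57, forms disulfides in glycoproteins held by the lectins (chr15:43746392-43773279). It read 743, 554 and 527 CPM in control and 420, 399 and 366 CPM in irradiated libraries. Control replicate 1 stood highest, and all 3 irradiated libraries were below the lowest control. The log2 fold change was −0.62 (SE 0.14, adjusted p = 0.00415), and the call held with each library left out in turn.

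HYOU1, the ER Hsp110 that helps HSPA5 exchange its nucleotide, lies at chr11:119044189-119057202. It read 28.8, 31.8 and 39.2 CPM in control and 53.3, 60.6 and 54.1 CPM in irradiated libraries. All irradiated libraries were above all control libraries. The log2 fold change was 0.74 (SE 0.16, adjusted p = 0.0038), and this call too held with each library left out.

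CALR, the soluble lectin of the ER (chr19:12938578-12944489), read 346, 325 and 359 CPM in control and 414, 406 and 401 CPM in irradiated libraries. The groups did not overlap, yet the log2 fold change of 0.25 (SE 0.11) did not pass (adjusted p = 0.105). PDIA6, a disulfide isomerase that binds HSPA5 clients, went the other way with 343, 299 and 295 CPM in control and 289, 279 and 262 CPM in irradiated libraries. Its groups did not overlap either, and its log2 fold change of −0.17 (SE 0.11) did not pass (adjusted p = 0.271). Groups that did not overlap were found for 21.5% of all genes in the higher and 21.3% in the lower direction.

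XBP1, the transcription factor spliced by IRE1, read 73.8, 84.6 and 80.7 CPM in control and 109.8, 84.3 and 92.5 CPM in irradiated libraries. One irradiated library lay just under the highest control. The log2 fold change was 0.26 (SE 0.14, adjusted p = 0.169). CANX, the membrane-bound lectin, had means of 249.8 ± 19.9 CPM and 263.6 ± 12.3 CPM with overlapping groups (log2 fold change 0.08, adjusted p = 0.644). PDIA4, also called ERp72, had means of 82.2 ± 9.78 CPM and 84.1 ± 12.1 CPM (log2 fold change 0.04, adjusted p = 0.872).

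DNAJB9, a co-chaperone of HSPA5 that is known as a target of spliced XBP1, had 1 transcript and so left the set of genes with at least 2. It was read from a fit on all rows, in which 10.5% of 12865 genes rose and 13.6% fell. It held 8, 17 and 14 counts in control and 27, 23 and 18 counts in irradiated libraries. These few counts overlapped between groups as CPM, and the log2 fold change of 0.54 (SE 0.41) did not pass (adjusted p = 0.35).

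Per kb of the most counted coding transcript, control cells held HSP90B1 (235 ± 12.6 CPM per kb), HSPA5 (230.5 ± 21.4), CALR (180.4 ± 9.18), PDIA3 (163 ± 31.6) and PDIA6 (133.5 ± 11.3) at the top. The values of HSP90B1 and HSPA5 overlapped, as did those of CALR and PDIA3 and those of PDIA3 and PDIA6. CANX, XBP1, PDIA4, HYOU1 and DNAJB9 followed, each apart from the next. In irradiated cells CALR came first at 214 ± 3.41 CPM per kb, above HSP90B1 at 184.3 ± 7.86 and HSPA5 at 168.2 ± 5.43, and these 3 did not overlap. This order rests on the length used, since a long read stands for 1 cDNA whatever its length. With count-weighted lengths CALR came first in control too, at 267.3 ± 13.6 CPM per kb, overlapping HSP90B1 at 247.6 ± 13.2, and without division by length HSPA5 had the highest CPM of the members in both groups.

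The directions depended on how libraries were scaled. The TMM factors differed between the groups, and with library totals alone the all-gene median moved from 0.08 to 0.53 on the log2 scale. On that scale HSPA5 was at 0.01 (adjusted p = 0.958) and HSP90B1 at 0.10 (adjusted p = 0.286), so that their direction turned, and PDIA3 was at −0.16 (adjusted p = 0.319). HYOU1, CALR, CANX, PDIA4, PDIA6 and XBP1 passed as higher. Relative to the median of all genes the distances hardly moved. HSPA5 lay at −0.53 from it with TMM and at −0.52 with totals (log2), PDIA3 at −0.70 and −0.69, and HYOU1 at 0.66 and 0.65.

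Transcript length also moved with the groups. The median log2 fold change was −0.43 for the 930 genes with transcripts of at most 1000 bases and 0.33 for the 2755 genes over 4000 bases. HSPA5 and PDIA3 are long, and they lay at −0.68 and −0.85 from the median of their length class (log2). CALR and XBP1 are short, and they lay at 0.47 and 0.48 from theirs. Lengths came from transcripts in GENCODE 29, which hold 13.08% of HSPA5 and 27.18% of PDIA3 counts, so the class of both genes rests on a small part of their counts. With a length trend taken out in the fit, CALR was at 0.49 (adjusted p = 0.00284) and XBP1 at 0.40 (adjusted p = 0.0484), and both passed as higher. HYOU1 then stood at 0.48 and HSPA5 at −0.71.

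**Figure D2:**
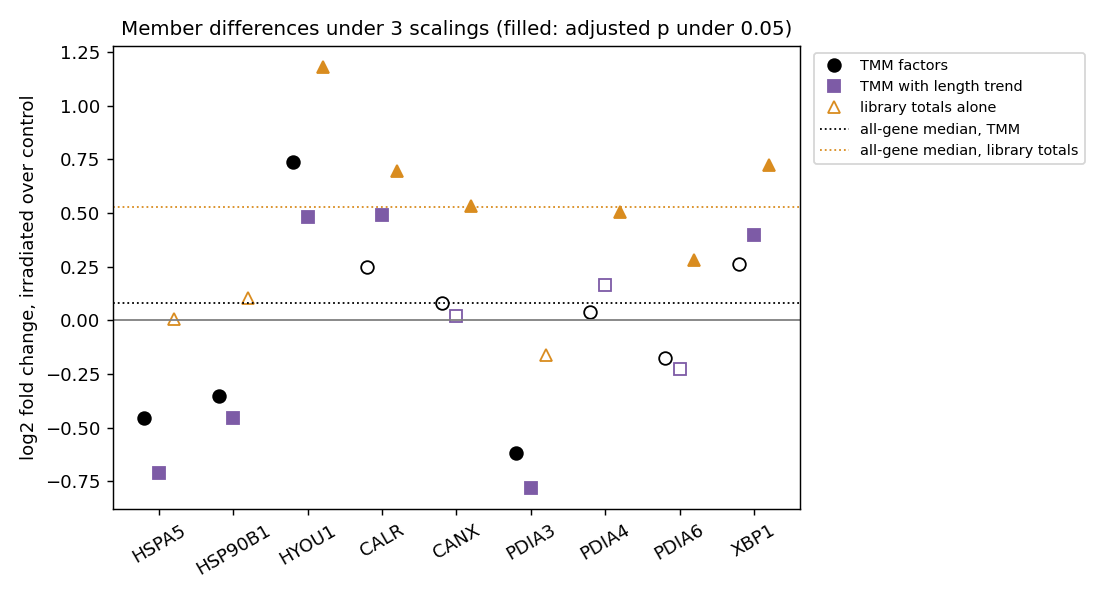
Log2 fold changes of 9 members, irradiated over control, with TMM factors, TMM with a length trend, and library totals alone (filled marks: adjusted p under 0.05, dotted lines: medians of all genes). HSPA5 and HSP90B1 turn from below 0 to just above it with library totals, and PDIA6 turns too. HYOU1, CALR, CANX, PDIA4 and XBP1 stay above 0 in all 3, and of these only HYOU1 passes in all 3.

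A ratio within a library needs no scaling between libraries, and it shows unequal change only. HYOU1 counts were 3.09%, 3.3% and 4.88% of HSPA5 counts in control libraries and 7.83%, 9.32% and 8.53% in irradiated libraries. CALR was at 37%, 33.7% and 44.6% in control and 60.9%, 62.2% and 62.9% in irradiated libraries. XBP1 was at 7.9%, 8.8% and 10.03% in control and 16.2%, 12.9% and 14.5% in irradiated libraries.

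In these 3 genes, and in HSP90B1, DNAJB9, CANX, PDIA4 and PDIA6, all irradiated ratios were above all control ratios. That makes 8 of 9 members, read beside 45.2% of all genes with a higher ratio to HSPA5 without overlap and 5.67% with a lower one. PDIA3 was the exception, with 67.6 ± 11.2% in control and 60.1 ± 2.4% in irradiated libraries. The two-sided exact permutation p was 0.1 for each of the 8, the smallest that 3 against 3 can give.

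**Figure D3:**
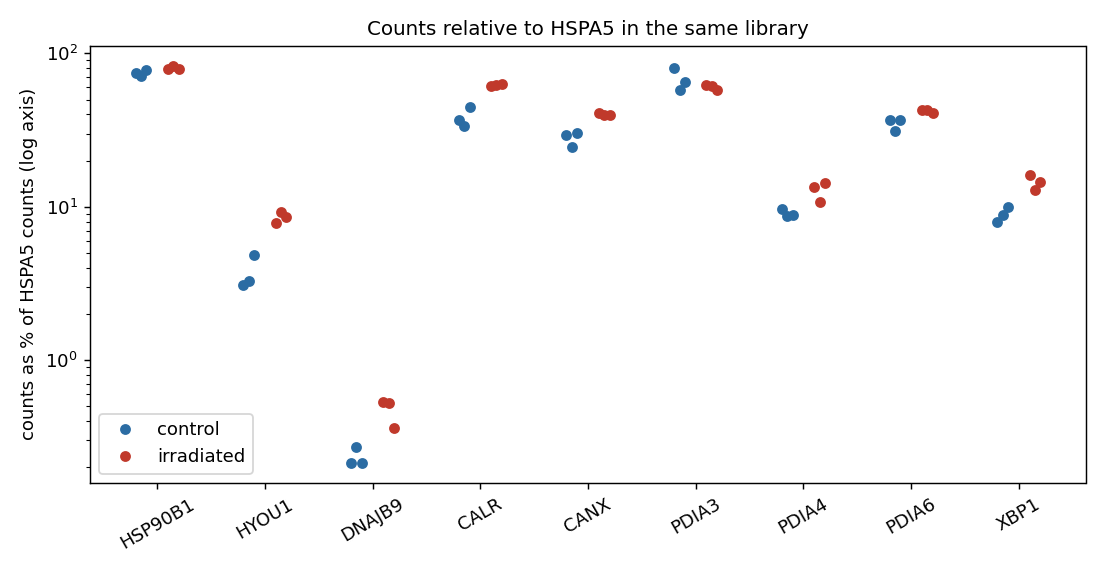
Counts of 9 members as a percentage of HSPA5 counts in the same library (log axis), with 3 control libraries in blue and 3 irradiated in red. PDIA3 is the member whose groups overlap, and HYOU1 shows the widest step, from a mean of 3.76% to 8.56%.

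At transcript level, 147 member transcripts were tested, of which 43 fell and 17 rose (edgeR, adjusted p under 0.05), beside 10.7% and 8.54% of all 74843 transcripts. The 147 come from 9 genes. Transcripts of a gene move with its total, so these counts are not independent of each other or of the gene-level calls. With an absolute log2 fold change over 1 as well, 13 were lower and 0 higher, beside 4.33% and 3.36%. The 13 became 7 without control replicate 2, 8 without control replicate 1 and 22 without control replicate 3, and library totals alone gave 3 lower and 19 higher. Before the fold limit, 11 of the 24 PDIA3 transcripts, 11 of 28 HSP90B1 transcripts and 9 of 15 HSPA5 transcripts fell, and 3 of 15 HYOU1 transcripts rose. CANX held the most that rose, 8 of 43 with 6 that fell, and CALR had 2 that rose and 4 that fell of 8.
The PDIA3 transcript ENST00000691893, chosen after its values were seen, held 175, 167 and 167 counts in control and 57, 52 and 51 counts in irradiated libraries. Its irradiated counts were all far below the controls (log2 fold change −2.05, SE 0.19, adjusted p = 5.65e-23). The control libraries differed in depth, with 4870897, 8552647 and 9082409 counts, so the near-equal counts are not near-equal levels. Scaled, it stood at 30.5 ± 12.3 CPM in control and 7.18 ± 0.693 CPM in irradiated libraries. Its share of PDIA3 counts was 5.91%, 4.61% and 3.92% in control and 1.82%, 1.95% and 1.78% in irradiated libraries. No name or class was found for it in GENCODE 29.

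At the p limit alone, 30 member transcripts passed the usage test, beside 4.44% of all transcripts. Shares of transcripts within a gene depend on each other, so these too are not independent results. Isoform usage was called for 1 member transcript of 147, beside 0.404% of all transcripts, at an adjusted p under 0.05 and an absolute dIF of at least 0.1. The IF of a transcript is its share of the gene's counts, and dIF is the mean irradiated minus the mean control IF. CALR-206 (ENST00000588454), a model of 776 bases in the protein-coding class, covers only the upstream end of CALR (chr19:12938645-12940872). It took 22.6%, 20.7% and 27.2% of CALR counts in control and 35.1%, 32.7% and 34.5% in irradiated libraries. All irradiated shares were above all control shares, with a dIF of 10.6 points (adjusted p = 0.0215).

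CALR-201 (ENST00000316448), the full-length coding model, took 59.4%, 61% and 50.6% in control and 44%, 47.3% and 44.5% in irradiated libraries. Its dIF of −11.7 points did not pass (adjusted p = 0.301). CALR-204, a model of 394 bases in the nonsense-mediated decay class, covers only the downstream end of the gene (chr19:12943873-12944489). It had IF of 13.3 ± 2.46% in control and 17.8 ± 1.25% in irradiated libraries (adjusted p = 0.145). The CALR-206 call was lost without control replicate 1 (adjusted p = 0.17), control replicate 2 (0.168), irradiated replicate 1 (0.147) or irradiated replicate 3 (0.172). Divided by transcript length, its dIF was 7.55 points, under the limit, and HSP90B1-203, a retained-intron model, reached the limit in its place (12.19 points). The divided fractions were not tested. The adjusted p of HSP90B1-203, 0.00534, is that of the usage test on undivided counts, where its dIF was 1.44 points. The division uses transcripts with a known length, which hold 13.52% of HSP90B1 counts.
Protein-coding models, the partial model CALR-206 among them, held 84.3 ± 2.51% of the classed CALR counts in control and 81.3 ± 0.959% in irradiated libraries (two-sided exact permutation p = 0.2). In XBP1 this share was 81.7 ± 0.905% in control and 79.9 ± 0.164% in irradiated libraries, without overlap (exact permutation p = 0.1, the smallest possible, and 0.2 adjusted over both genes). The kept PDIA6 models were all coding. For HSPA5, HSP90B1, CANX and PDIA3, GENCODE 29 gave a class for 13.08% to 27.18% of the counts, and for PDIA4 and HYOU1 for 65.78% and 67.52%, so no share is given for these 6 genes.

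In PDIA6, the leading models PDIA6-201 and PDIA6-207 went from 31.6 ± 2.16% and 31 ± 2.3% of counts to 24.4 ± 1.54% and 23.3 ± 1.88%. Neither passed (adjusted p = 0.204 and 0.13). PDIA6-202 and PDIA6-208 had adjusted p of 0.0366 and 0.0488 with dIF of 4.51 and 4.34 points, under the limit of 10 points. The groups did not overlap in any of the 4, and the share of all transcripts with such IF was not counted, so this is description only.

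**Figure D4:**
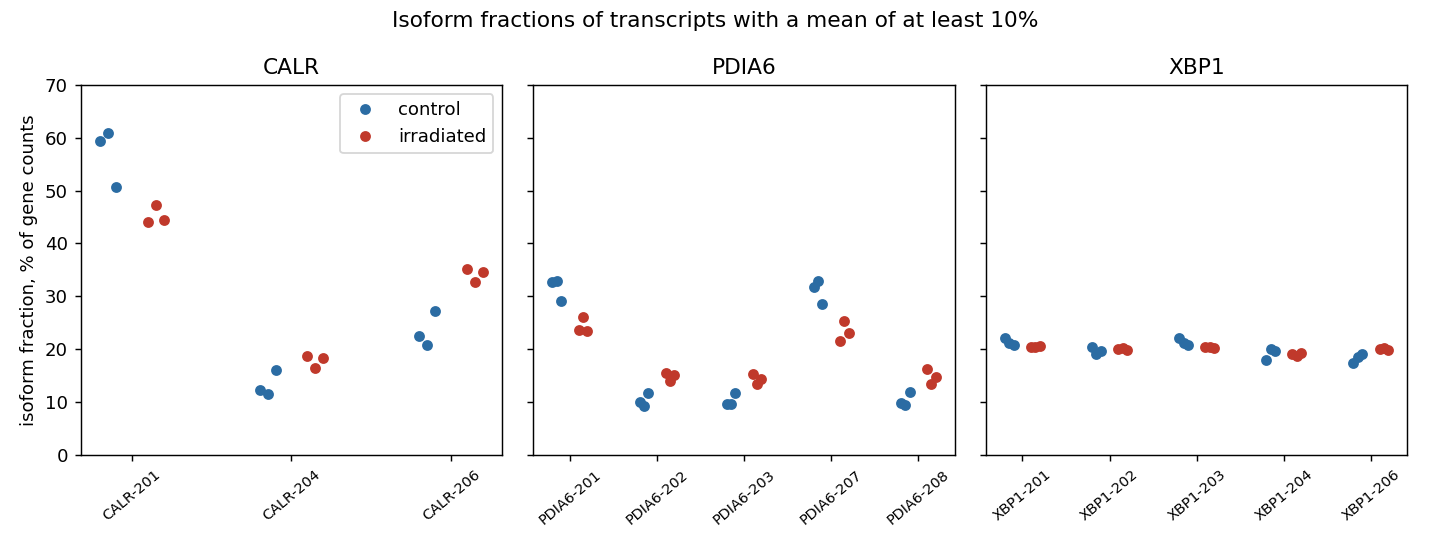
Isoform fractions, as a percentage of the gene's counts, of CALR, PDIA6 and XBP1 transcripts with a mean of at least 10%, with control libraries in blue and irradiated in red. CALR-201 is lower and CALR-206 higher in all irradiated libraries, and the 5 XBP1 transcripts all lie near 20%.

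XBP1 splicing was looked for because it is the direct readout of IRE1. The intron, as GENCODE 29 places it, is 26 bases at chr22:28796122-28796147 (GRCh38, minus strand), and the repeated letters at its borders allow other placements. XBP1-201 holds it (capitals), and XBP1-202 lacks it.
XBP1-201: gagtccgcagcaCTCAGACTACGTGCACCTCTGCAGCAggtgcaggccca
XBP1-202: gagtccgcagcaggtgcaggccca

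Losing the intron shifts the reading frame, so that XBP1-202 has 376 codons where XBP1-201 has 261. XBP1-202 took 20.4%, 19.2% and 19.6% of XBP1 counts in control and 20%, 20.2% and 19.9% in irradiated libraries. The difference was 0.30 points (two-sided exact permutation p = 0.5). All 5 kept transcripts took 17.3% to 22.1% in every library, where an even split gives 20%. XBP1-201 and XBP1-203 had equal counts in 5 of 6 libraries. The share is therefore given as the counts stand, and was not read as a rate of splicing.

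Near-equal shares were seen in other members. A gene was counted when 2 of its transcripts, each with a mean IF of at least 10%, stayed within 1 point of each other in every library. This held for HSPA5, XBP1, PDIA6 and PDIA4 of the 7 members with such transcripts, and for 19.7% of 10080 genes. How the counting shared reads that fit several transcripts was not tested, and the shares of these members are given with that limit.

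The spread over transcripts, given as an effective number (the inverse of the summed squared IF), was higher without overlap in HSPA5, HSP90B1, CANX, PDIA3, PDIA6 and XBP1. For all genes this share was 28.5%. In HSPA5 it was 8.94, 9.02 and 9.78 in control and 11.1, 10.9 and 11.2 in irradiated libraries. HYOU1 was lower, at 4.0 ± 0.322 in control and 3.51 ± 0.0972 in irradiated cells, as was PDIA4, and 4.99% of all genes were lower. The steps of XBP1 (mean 4.977 in control and 4.997 in irradiated cells, of 5 transcripts) and PDIA4 (2.997 and 2.992, of 3) were minute. Both genes stood near an even split in both groups.

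The other genes of the ER pathway were taken from 8 lists. Of 99 tested genes, 18 rose and 31 fell, and the counts in each list are read beside 11.6% of all genes that rose and 14.1% that fell. With the length trend taken out, 12 of the 99 rose and 22 fell, and of 10668 genes of all kinds 944 rose and 1274 fell. Protein entry into the ER stood out by count: of 24 translocon, signal peptidase and oligosaccharyltransferase genes, 18 fell and 3 rose, with a median log2 fold change of −0.53 beside 0.08 for all genes.
SRPRB, part of the receptor for the signal recognition particle, fell from 110.1 ± 15.8 to 50.1 ± 2.69 CPM (log2 fold change −1.13, adjusted p = 0.000336). SPCS1, a signal peptidase subunit, fell from 337 ± 59.2 to 170.2 ± 31.5 CPM, and SSR3, of the translocon-associated complex, fell from 760 ± 96.9 to 425 ± 54.2 CPM. Subunits of the Sec61 channel moved in opposite directions: SEC61A1 rose (log2 fold change 0.75, adjusted p = 0.00327), and SEC61G (−0.75, adjusted p = 0.00127) and SEC61B (−0.63, adjusted p = 0.00223) fell. With the length trend taken out, 12 of the 24 listed genes fell and 1 rose, and values of the Sec61 subunits under it are not given here. With library totals alone the median of the list was −0.08 beside 0.53 for all genes.

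Among 15 co-chaperones and folding factors, 5 rose and 1 fell. PPIB, a prolyl isomerase, fell from 3081 ± 379 to 1823 ± 247 CPM. CRELD2, an ER stress-induced secreted protein, rose from 15.9 ± 5.48 to 32.4 ± 5.81 CPM, and SERPINH1, the collagen chaperone, rose from 111 ± 22.3 to 182.5 ± 3.56 CPM. Of 15 thiol oxidoreductases, 5 fell and 1 rose. PRDX4, the ER peroxiredoxin, had the smallest adjusted p among them (log2 fold change −1.23, adjusted p = 0.000301), ahead of ERP29 (−0.54) and TXNDC12 (−0.60).

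Of 9 sensors and proteases of the response, MBTPS1, the protease that cleaves ATF6, rose (log2 fold change 0.93, adjusted p = 0.00223) and ATF6B fell (−0.69, adjusted p = 0.0141). CREB3 stood at −0.42 (adjusted p = 0.0643). In the PERK and ATF4 arm, 4 of 9 genes fell and 2 rose, and with the length trend taken out 1 fell and 2 rose. ATF4, its central transcription factor, fell from 412.8 ± 42.8 to 295.4 ± 31.3 CPM, DDIT3 (CHOP) fell from 62.8 ± 11.6 to 40 ± 5.89 CPM, and ATF3 rose from 4.33 ± 1.07 to 8.92 ± 2.29 CPM.

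The remaining lists held few calls. In ER-associated degradation, 3 of 16 rose and 2 fell, with DERL2 at −0.75 and OS9 at −0.44 (log2 fold change). In the glycan trimming and lectin cycle, 2 of 8 rose (MOGS at 0.74 and MLEC at 0.51), and GANAB at 0.28 did not pass (adjusted p = 0.14). Of the KDEL receptors, which return escaped chaperones to the ER, KDELR2 rose (0.46, adjusted p = 0.0338), and KDELR3 (−0.17) and KDELR1 (0.09) did not pass.

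Several of these calls were lost when a library was left out, with the direction unchanged. The log2 fold changes then ran from −0.58 to −0.41 for ATF4, 0.40 to 0.63 for MLEC and 0.38 to 0.59 for KDELR2. ATF4 lost its call without irradiated replicate 3 (adjusted p = 0.0771), and DDIT3 and ATF6B lost theirs without control replicate 2 (0.0649 and 0.0888) or irradiated replicate 3 (0.0622 and 0.0822). OS9 lost it without control replicate 1 (0.0662) or irradiated replicate 3 (0.0883), and MOGS without control replicate 1 (0.0621) or irradiated replicate 1 (0.0835). MLEC passed with all libraries and without control replicate 3, and was lost without any other library. KDELR2 was lost without any but control replicate 3 or irradiated replicate 2, and ATF3 without any but control replicate 3 or irradiated replicate 1. With library totals alone ATF4 (−0.03, adjusted p = 0.812), DDIT3 (−0.19, 0.323), ATF6B (−0.22, 0.355), ERP29 (−0.09, 0.529), TXNDC12 (−0.14, 0.343) and DERL2 (−0.30, 0.149) did not pass.

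**Figure D5:**
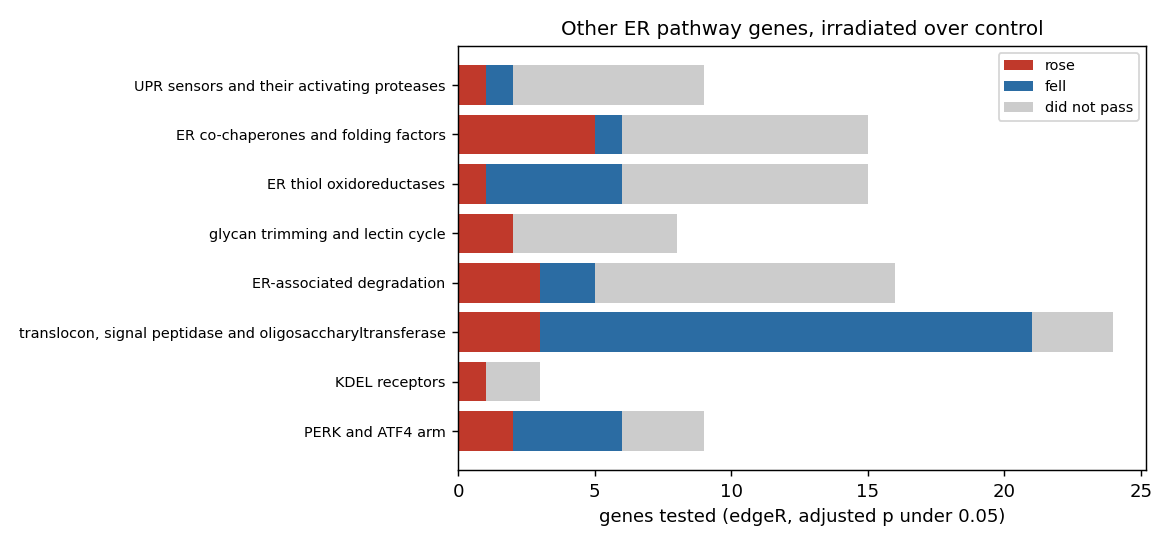
Number of genes in 8 ER lists that rose, fell or did not pass (edgeR, adjusted p under 0.05), with TMM factors. The translocon list has 18 genes that fell of 24, and library totals alone would leave 7 genes that fell over all 8 lists.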

How the data were processed

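Per the labels and the paper's methods, the authors aligned long reads to GRCh38 with minimap2 and quantified transcripts with Salmon, and deposited unnormalised counts per transcript for the 6 libraries. Versions of these tools were not stated, and no collapsing of molecular identifiers is named. Genes with 10 counts in at least 3 libraries, transcripts with 3 counts in at least 1 library and genes with at least 2 such transcripts were kept, and counts were summed per gene. Groups were compared with edgeR 4.0.16 in R 4.3.3 (TMM, robust quasi-likelihood fit, Benjamini-Hochberg over all features), and usage with diffSpliceDGE. DESeq2 1.42.0, limma 3.58.1, other scalings, filters and left-out libraries were alternatives. SE is the absolute log2 fold change over the square root of F. Transcript names, classes, lengths and gene positions came from GENCODE 29, which holds 70.2% of the kept transcripts. Some of its models, CALR-206 and XBP1-202 among them, have another version number than in the files. Replicates are separate cultures.

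The members and gene lists were chosen with earlier results of these data known. Named are all 10 members, the 3 genes of each list with the smallest adjusted p, transcripts with a mean IF of at least 0.1, those called for usage, and both XBP1 reading frames. The values of some genes under this rule are not reported here. SEC61A1, SEC61B and SEC61G were added after their values were seen. The ratios to HSPA5, the levels per count-weighted length, the effective number of transcripts, the search for near-equal shares, the other genes with a motif and the lists under the length trend were also added after seeing the data. Scripts were tested on simulated data.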

Additional observations from a re-analysis of the deposited data

How the results depend on the processing

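Library totals alone turned HSPA5 (0.00575), HSP90B1 (0.10), PDIA6 (0.28), OS9 (0.016), KDELR3 (0.28) and CREB3 (0.044) to higher on the log2 scale, and left 0 members that fell and 6 that rose. They gave 7 list genes that fell and 37 that rose, and 3 member transcripts lower and 19 higher. PDIA4 moved to −0.00012 with RLE factors and −0.00047 with DESeq2. The length trend gave 3 members that rose, and a fold limit gave 0 in each direction. Without any filter, HSP90B1 had an adjusted p of 0.0818.

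Leaving out each library gave 1 to 3 members that fell and 1 to 1 that rose, 17 to 33 list genes that fell and 6 to 22 that rose. It gave 7 to 22 member transcripts lower and 0 to 2 higher, and 0 to 2 isoforms with a usage change. PDIA4 ran from −0.075 to 0.15. Control replicate 3 gave the 22 transcripts and the 2 isoforms, irradiated replicate 3 the 17 list genes, and control replicate 2 and irradiated replicate 1 the 6. The cause was not tested.

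Replicate numbers did not pair the cultures (r of −0.001, 0.091 and 0.016 for equal numbers). With a replicate block, 3 members fell and 1 rose, 1 member transcript was higher, and 1 isoform changed usage. Low counts limit DNAJB9, and near-even splits over transcripts limit the isoform values of XBP1, PDIA4, HSPA5 and PDIA6.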
